A study of Drosophila melanogaster with 6 samples.

Results

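The DNA replication genes are 38 genes whose products license origins, unwind the template, hold the polymerases on it, bind the exposed single strands, finish the lagging strand, repack the daughter DNA and make deoxynucleotides. They were chosen by name and sorted into 9 roles. Of the 38, 32 were matched to one of the 14869 gene identifiers in the count tables, and 30 of those averaged 10 scaled counts or more across the 6 libraries, as did 8690 genes in all. Mcm3, Orc1, Psf2, RPA2, RPA3 and Top2 could not be matched by identifier and were not analysed here. Sld5 had 1 read in the DMSO 20 h library and 0 elsewhere, and lat, the fly Orc3, had 0 reads in all 6 libraries. All of the exonic length of lat lies under CG34315 on the same strand, and reads that fit both genes are not counted for either, so the 0 of lat was not read as a level. The cells were S2-DRSC, a cultured line of Drosophila melanogaster with blood cell character, growing exponentially, and the labels give no engineered allele and do not say whether the libraries came from separate cultures. JQ1 was given at 10 µM for 1, 2, 4 or 20 h and its solvent DMSO for 1 or 20 h, and 1 library of polyadenylated RNA was sequenced for each treatment and time. JQ1 binds BET bromodomains where they would hold acetylated lysine, and the study used it to ask how transcription responds when FSH, the BET protein of flies, is inhibited.

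Replication begins at origins where the origin recognition complex, Cdc6 and Cdt1 load the ring-shaped Mcm2-7 helicase onto DNA, a step that geminin blocks by holding Cdt1. The Cdc7 kinase, with its Dbf4 partner, together with Cdc45 and the GINS proteins then turns the loaded ring into a moving helicase, behind which PCNA and its loader RFC keep the polymerases in place. In flies many of these genes are transcribed in a burst before S phase under E2F and its partner Dp, and the factor Dref is known to bind the promoters of several of them. In RNA from a whole culture, fewer cells in S phase and less RNA per cell cannot be told apart.

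Reads assigned to genes numbered 26769735 to 29823608 in the JQ1 libraries, against 24547077 and 27786072 in the DMSO libraries. Values are scaled counts, meaning reads divided by a library factor set on the 100 genes most abundant in DMSO. All 9 blood cell markers had reads, with a summed level of 259187 to 333633 scaled counts in JQ1 against 291829 and 300689 in DMSO. That sum hid opposite moves, since at 20 h of JQ1 Hml was at 976%, Ppn at 694% and NimC1 at 483% of DMSO and the other 6 were at 33.3% to 90.6%, and their part in the results was not tested. The germ line, ovarian and fat body markers that were matched each summed to at most 9.67 scaled counts in any JQ1 library and 13.0 in any DMSO library, and the muscle marker to 27.2 and 45.4. The neuron markers elav and nSyb summed to 213 to 337 in JQ1, against 584 and 585 in DMSO, and their part in the results was not tested. By edgeR's quasi-likelihood test 3853 genes were lower and 124 higher in JQ1, with a median log2 fold change of -0.63 over all tested genes. With TMM factors that median was -0.04 with 549 lower and 436 higher, and with DESeq2 size factors it was 0.02 with 473 lower and 487 higher.

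Most of the replication genes were lower after JQ1. By edgeR's quasi-likelihood test over all libraries 23 of the 30 were lower and 0 higher, where 44.3% of all tested genes were lower and 1.43% higher, and 13 were lower at 20 h than at 1 to 4 h, where 7.34% of all tested genes were. The 30 tested members summed to 0.257%, 0.21%, 0.17% and 0.0926% of all gene reads at 1, 2, 4 and 20 h of JQ1, against 0.334% and 0.341% in DMSO. The Wilson 95% intervals of these shares, which cover counting error only, were 0.0915% to 0.0937% for JQ1 20 h and 0.332% to 0.336% for DMSO 1 h. Every JQ1 share lay below both DMSO shares, and each later share lay below the one before it. The median log2 fold change against the DMSO mean was -0.73, -1.12, -1.47 and -2.23 at the 4 times, beside -0.54, -0.65, -0.81 and -0.59 over all tested genes. As a background, the DMSO 20 h library differed from the DMSO 1 h library by a median of 0.08 for the members and 0.05 for all tested genes.

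The median member stood at 60.2%, 46.2%, 36.2% and 21.3% of its DMSO level at 1, 2, 4 and 20 h. Members below 50% of DMSO numbered 10 of 30 after 1 h, where 19.4% of all tested genes were that low. After 2 h there were 16 such members (31.1% of all genes), after 4 h 24 (39.5%) and after 20 h 26 (31.4%). At the 4 times 0 members were above 200% of DMSO, where 0.875%, 2.36%, 2.0% and 4.4% of all tested genes were. With TMM factors the members below 50% numbered 2, 5, 11 and 22 at the 4 times, where 5.45%, 11.3%, 14.7% and 17.7% of all tested genes were that low. In 29 of 30 members all 4 JQ1 libraries lay below both DMSO libraries, a pattern shared by 67.9% of all tested genes. In 23 of 30 the level dropped at every step, which 15.0% of all tested genes did. A single library stood behind each time, so these per-time values could not be checked by replicates and no p is given.

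The median step was -0.29 log2 units between 1 and 2 h, -0.31 between 2 and 4 h and -0.56 between 4 and 20 h. Over all tested genes the same steps had medians of -0.09, -0.12 and 0.24. The last step was downward in 26 of 30 members, against 33.7% of all genes.

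Because the drop after JQ1 varied with abundance, each gene was also set against the 200 tested genes nearest to it in DMSO level, the members themselves left out. The distance is the log2 fold change of the gene minus the median of those neighbours. Its median over the members was -0.24, -0.42, -0.63 and -1.61 at 1, 2, 4 and 20 h, and it is 0 by construction for a typical gene. Members more than 0.5 below their neighbours numbered 8, 12, 21 and 25 at those times, where 15.7%, 20.2%, 23.0% and 26.4% of all tested genes were that far below. Members more than 0.5 above numbered 0, 2, 1 and 2, against 9.93%, 18.1%, 20.1% and 23.8% of all tested genes. The distance shifts little with scaling, since a scaling factor moves a gene and its neighbours alike.

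**Figure D1:**
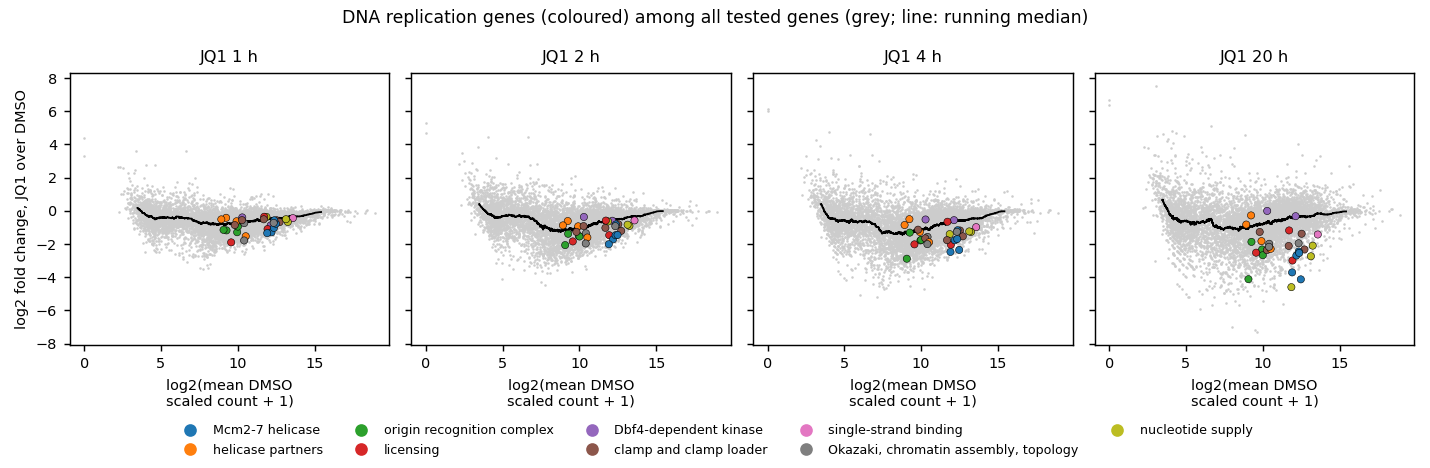
Log2 fold change of JQ1 over the mean of both DMSO libraries (vertical) against the log2 of the mean DMSO scaled count plus 1 (horizontal), 1 panel for each JQ1 time, with tested genes in grey, their running median as a line and the 30 members coloured by role. At 1 h 22 of the 30 members lie below the median of their neighbours, with a median of -0.73, and they lie mostly far under it at 20 h, with a median of -2.23 where all tested genes have -0.59.

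**Figure D2:**
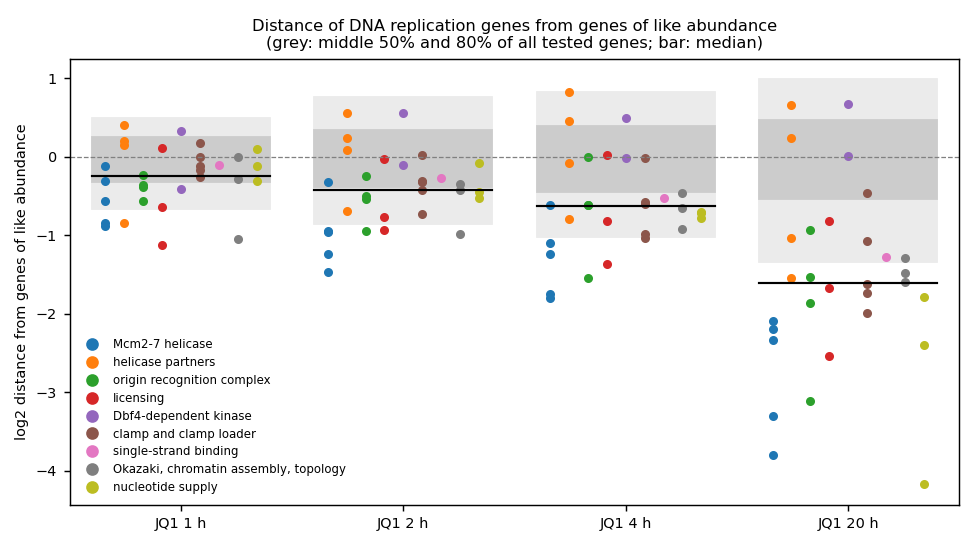
Log2 distance of each member from genes of like abundance (vertical) at each JQ1 time (horizontal), with points coloured by role and a black bar at the median of -0.24, -0.42, -0.63 and -1.61. Grey boxes span the middle 50% and 80% of all tested genes, and the members lie lower against the boxes at each later time, with 25 of 30 more than 0.5 below their neighbours at 20 h.

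In the pooled test all 4 JQ1 libraries were set against both DMSO libraries, using edgeR's quasi-likelihood test with Benjamini-Hochberg adjustment over all 8690 genes. Of the 30 members, 23 were lower and 0 higher at an adjusted p below 0.05, where 44.3% of all tested genes were called lower and 1.43% higher. All 30 log2 fold changes were negative, with a median of -1.22, of which 27 stayed negative with TMM factors or DESeq2 size factors and Psf3, Cdc7 and chif turned positive. Without adjustment 27 members were lower and 0 higher, where 4668 of the 8690 tested genes were lower and 179 higher. The Wald test of DESeq2 with adjustment also called 27 members lower and 0 higher, where 4344 of all tested genes were lower and 166 higher. The 7 that missed the threshold were Mcm6 (adjusted p = 0.0831), Mcm7 (0.0856), RfC3 (0.0622), Psf3 (0.0847), RnrS (0.105), Cdc7 (0.215) and Ts (0.302). The strongest of the pooled changes were those of Orc6, Mcm5 and Cdc6, at -2.18 ± 0.67, -2.15 ± 0.53 and -2.05 ± 0.24 (log2, SE). The JQ1 libraries differ in duration, so the spread within that group includes change with time. With TMM factors or DESeq2 size factors 3 members were called, namely Mcm10, Cdc6 and Caf1-105, where 6.32% and 5.44% of all tested genes were called lower. With the DMSO 20 h or the DMSO 1 h library as the only control, a fit with no replicate control, the calls did not hold. This was so for all tested genes, not only for the members. All 30 log2 fold changes stayed negative there, from -2.25 to -0.39 and from -2.12 to -0.22. A fit with treatment duration (1 or 20 h) as a block left out the JQ1 2 h and 4 h libraries. In it 0 members and 0 of all genes were called. Whether the block or the smaller set of libraries accounts for this was not tested. Under that block 23 members passed unadjusted, all lower, where 2566 of the 8690 tested genes were lower and 76 higher.

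A second fit separated the JQ1 20 h library from those of 1 to 4 h. In it 13 of 30 members were lower at 20 h than at 1 to 4 h and 0 were higher, where 7.34% of all tested genes were lower and 17.2% higher. Of the 30 differences 27 were negative, and those of Psf3, Cdc7 and chif were positive. The 13 were Mcm2, dpa, Mcm5, Mcm6, Mcm7, dup, geminin, PCNA, RpA-70, Caf1-180, RnrL, RnrS and Ts, and 4 of them (Mcm6, Mcm7, RnrS and Ts) had missed the threshold in the pooled test. The median log2 difference was -0.95 over the members and 0.10 over all tested genes. Over all tested genes 638 were lower and 1495 higher at 20 h, a split that was 1236 and 781 when scaled on total counts, 1040 and 1083 with TMM factors and 1022 and 1095 with DESeq2 size factors, and 20 members were lower and 0 higher under each of these. Against DMSO, the 1 to 4 h libraries were lower in 29 members (64.4% of all tested genes) and the 20 h library in 27 (42.4%), with 0 members higher in either (2.5% and 7.55%). The lone 20 h library was assumed to vary like the other groups, and its calls moved with the libraries used. Without the JQ1 2 h library 1 member (Ts) was lower at 20 h (1.22% of all tested genes). Without the JQ1 4 h library 22 were lower (17.2%) and 1 (chif) higher (21.6%). With the DMSO 1 h or the DMSO 20 h library left out fewer were called, and the log2 differences still ran from -3.87 to 0.42.

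**Figure D3:**
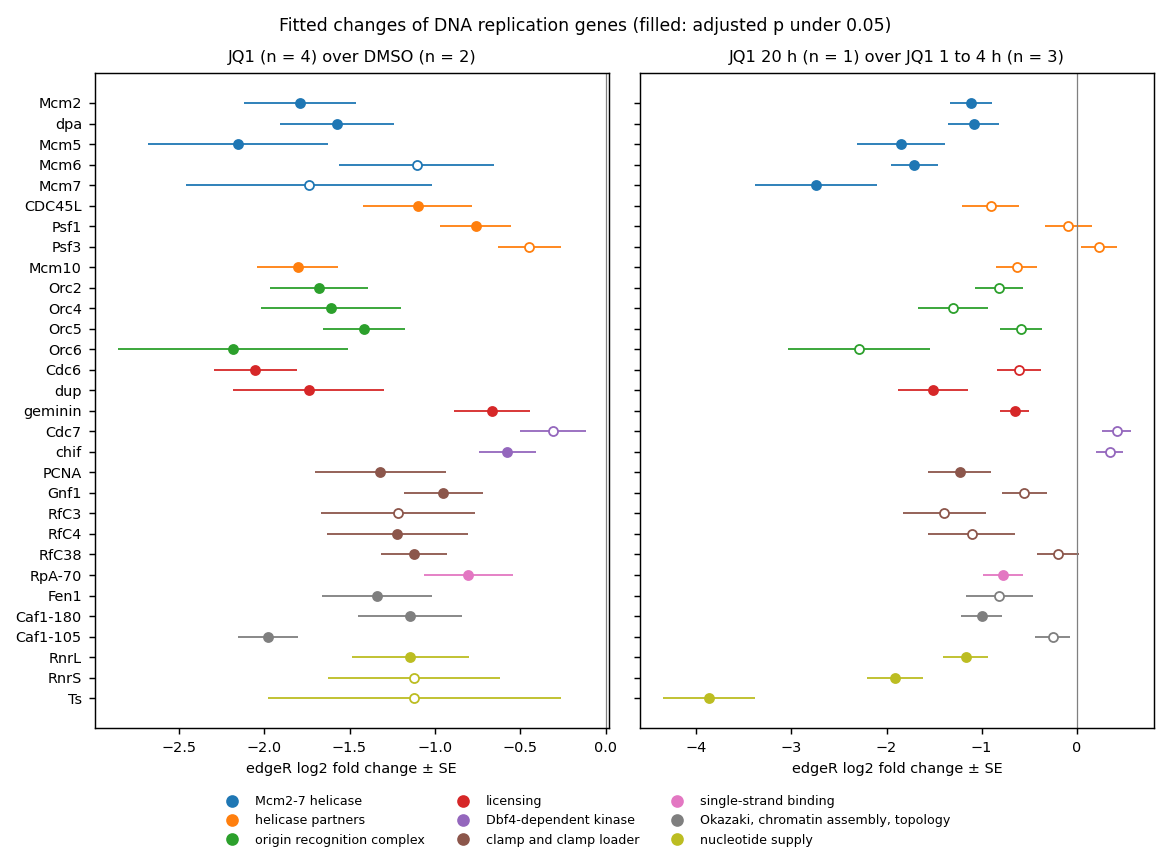
Fitted log2 fold change with its SE (horizontal) for each of the 30 tested members (vertical, coloured by role), JQ1 over DMSO on the left and JQ1 20 h over JQ1 1 to 4 h on the right, with filled points at an adjusted p below 0.05. All 30 points lie left of 0 in the pooled comparison with 23 filled, and 27 lie left of 0 at 20 h with 13 filled.

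The 5 matched genes of the Mcm2-7 helicase, the ring that unwinds the template, stood at 5.70% to 18.3% of DMSO at 20 h. Mcm5 had 1522, 955, 693 and 294 scaled counts at 1, 2, 4 and 20 h of JQ1, against 3685 and 4028 in DMSO. Mcm7 had 3339.7, 2085, 1117 and 326 across the JQ1 times and 5443 and 5991 in DMSO. Mcm6 had 3573, 3009, 2357 and 913 across the JQ1 times and 5295 and 5315 in DMSO. In all 3 genes each JQ1 library lay below the one before it and none reached a DMSO library. Of all tested genes 15.0% dropped at every step and 67.9% had all JQ1 libraries below both DMSO libraries. The pooled log2 fold change was -2.15 ± 0.53 for Mcm5 (edgeR's adjusted p = 0.0181), and neither Mcm7 at -1.73 ± 0.72 nor Mcm6 at -1.11 ± 0.45 passed. At 20 h against 1 to 4 h, however, Mcm7 changed by -2.74 and Mcm6 by -1.71 on the log2 scale (edgeR's adjusted p = 0.0307 and 0.00834). Mcm2 had 1904, 1417, 1365 and 722 across the JQ1 times and 4569.8 and 4772 in DMSO. The fly Mcm4, dpa, had 2563, 1889.6, 1610.2 and 955 across the JQ1 times and 5109.5 and 5343 in DMSO. Both were below 50% of DMSO within 1 h, at 40.8% and 49.0%, whereas Mcm6 was first that low at 4 h. All 5 were more than 0.5 below genes of like abundance at 4 h and more than 2 below at 20 h, Mcm7 by the most, at -3.80. Of the exonic length of Mcm7, 81.7% lies under an antisense RNA gene, and whether the counting used strand was not stated.

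**Figure D4:**
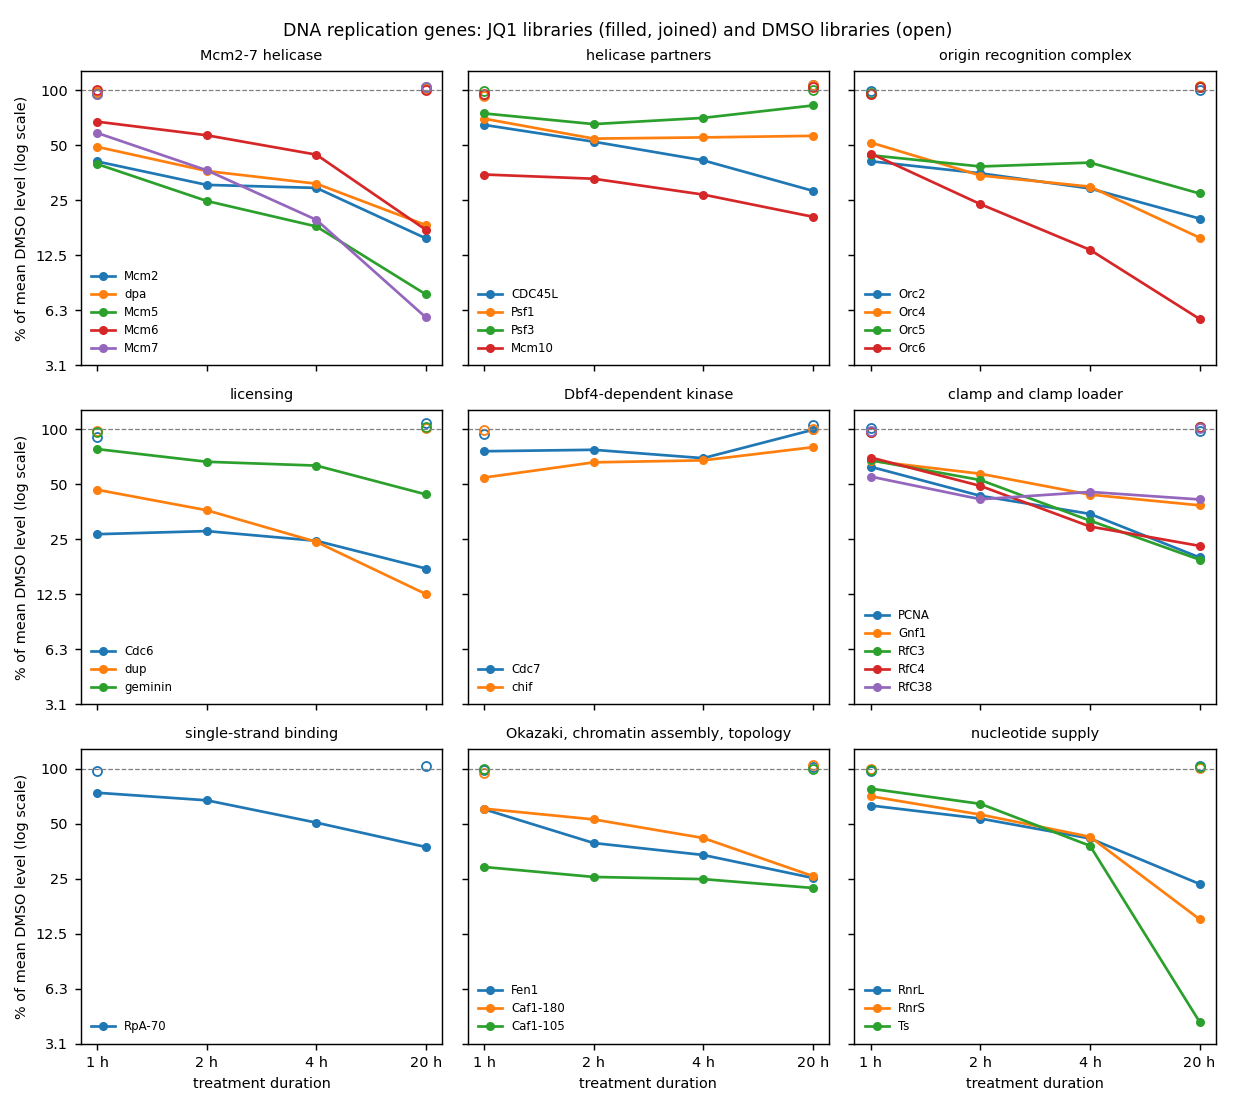
Level as a percentage of the mean of both DMSO libraries (vertical, log scale) against treatment duration (horizontal, not to scale), 1 panel for each role, with filled joined points for the JQ1 libraries and open points for the DMSO libraries. Most lines head downward to 20 h, Ts as far as 4.11%, while Cdc7, chif, Psf1 and Psf3 stay between 54.4% and 99.6% at every time.

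The partners that turn the loaded ring into a working helicase divided. Mcm10, which helps the helicase to start, had 506, 479.8, 393 and 297 scaled counts at 1, 2, 4 and 20 h of JQ1, against 1403 and 1523 in DMSO. CDC45L, the fly Cdc45, had 625, 505, 399 and 272 across the JQ1 times and 905 and 1027 in DMSO. Mcm10 was at 34.6% of DMSO within 1 h, and its pooled log2 fold change of -1.80 ± 0.24 passed (edgeR's adjusted p = 0.00497). CDC45L declined more slowly, to 28.2% at 20 h, and its change of -1.10 ± 0.32 passed too (0.0304). From genes of like abundance CDC45L lay 0.15, 0.09, -0.08 and -1.03 at 1, 2, 4 and 20 h. Mcm10 lay -0.84, -0.69, -0.79 and -1.54 from such genes. The GINS subunits Psf1 and Psf3 showed a different course. Psf1 had 339, 264, 268 and 273 across the JQ1 times and 452 and 518 in DMSO. Psf3 had 451, 394, 426 and 498 across the JQ1 times and 599 and 608 in DMSO. Both lay below DMSO in every JQ1 library, as 67.9% of all tested genes did. Neither reached 50% at any time, which held for 4309 of the 8690 tested genes. Neither was lower at 4 or 20 h than at 2 h. Psf1 passed in the pooled test at -0.76 ± 0.21 (edgeR's adjusted p = 0.0252) and Psf3 did not, at -0.45 ± 0.19, a sign that turns positive with TMM factors or DESeq2 size factors. Both were above genes of like abundance at all 4 times, Psf1 by 0.21 to 0.46 and Psf3 by 0.41 to 0.83. Of the exonic length of Psf3, 34.9% lies under CG17841 on the opposite strand, and of that of Mcm10 13.0% lies under Ret, also opposite.

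The origin recognition complex, which marks origins and receives the helicase, was represented by 4 tested subunits. All 4 fell in the pooled test, where 44.3% of all tested genes did. Orc6, the smallest subunit, had 242, 128, 71.8 and 30.0 scaled counts at 1, 2, 4 and 20 h of JQ1, against 513 and 559.5 in DMSO. Orc2 had 406, 349, 288 and 197 across the JQ1 times and 984 and 1002 in DMSO. Orc6 rested on 30 reads at 20 h, so that its log2 fold change there lay between -4.73 and -3.63 by counting error alone. Its pooled change was -2.18 ± 0.67 and that of Orc2 -1.68 ± 0.29 (edgeR's adjusted p = 0.0361 and 0.00759). Orc4 had 531, 351, 305 and 160.1 across the JQ1 times and 975 and 1078 in DMSO. Orc5 had 271, 235, 247 and 167 across the JQ1 times and 591 and 636 in DMSO. Orc5 changed least of the 4, at -1.42 ± 0.24, with a slight upturn at 4 h, and stood at 27.2% of DMSO at 20 h where Orc6 stood at 5.60%. No JQ1 library of the 4 genes overlapped with DMSO, and 67.9% of all tested genes likewise had all JQ1 libraries below both DMSO libraries. Their median distance from genes of like abundance was -0.37, -0.51, -0.61 and -1.70 at 1, 2, 4 and 20 h. Orc5 lay -0.38, -0.25, -0.01 and -0.94 from such genes at those times. None of the 4 passed between 20 h and 1 to 4 h, although all 4 differences were negative, from -2.29 for Orc6 to -0.59 for Orc5.

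Per kilobase of exon, which allows genes of one complex to be compared, levels within a complex kept no fixed ratio. Among the 5 Mcm2-7 genes the highest level was 2.20, 2.77, 2.99 and 2.73 times the lowest at 1, 2, 4 and 20 h of JQ1, against 1.48 and 1.49 times in DMSO. Mcm7 was the highest of the 5 in DMSO, at 2221 and 2444 scaled counts per kilobase, and Mcm6 was at 2, 4 and 20 h of JQ1, while Mcm5 was the lowest in every library. Among the 4 tested origin complex genes the ratio was 2.05, 1.65, 2.55 and 3.21 in JQ1 against 1.72 and 1.77 in DMSO. Orc5 was the lowest in DMSO and at 1 h of JQ1, and Orc6 was the lowest from 2 h on. Among the 4 clamp loader genes the highest was 6.71, 6.23, 3.41 and 3.30 times the lowest in JQ1, against 5.23 and 5.31 times in DMSO. Exonic lengths came from a newer annotation than the counts, which shifts a gene by the same factor in every library.

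**Figure D5:**
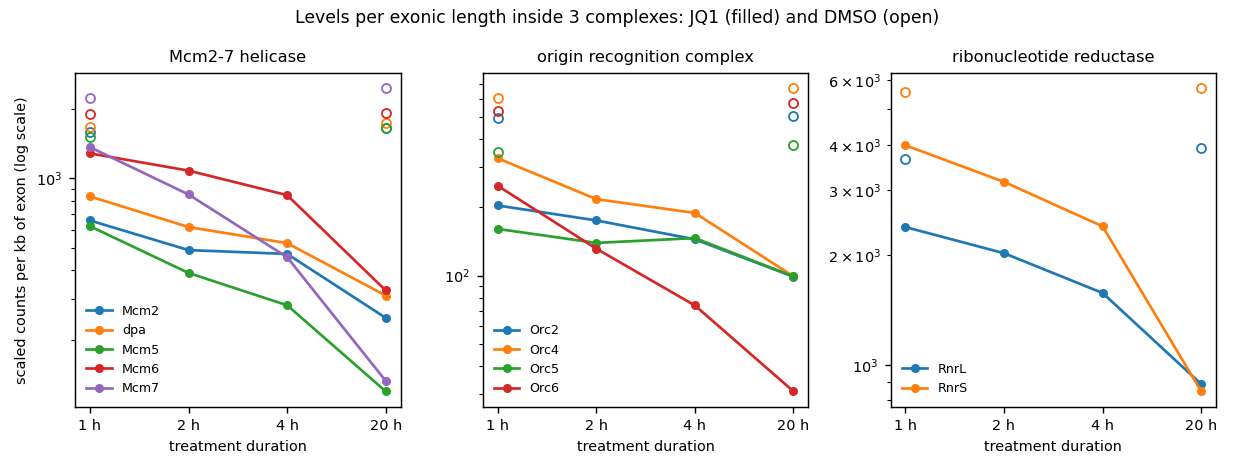
Scaled counts per kilobase of exonic length (vertical, log scale) against treatment duration (horizontal, not to scale) for genes of the Mcm2-7 helicase, the origin recognition complex and ribonucleotide reductase, with filled joined points for JQ1 and open points for DMSO. At 20 h the ratio of highest to lowest is 2.73 in JQ1 against 1.49 in DMSO for the helicase and 3.21 against 1.77 for the origin complex, and the lines of RnrL and RnrS meet at 20 h.

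Of the 3 licensing factors, the loaders fell early and deep and their inhibitor fell least. Cdc6, the ATPase that brings the helicase to the origin complex, had 202, 210.1, 186 and 131 scaled counts at 1, 2, 4 and 20 h of JQ1, against 690.0 and 823 in DMSO. Geminin had 2629.8, 2242, 2137 and 1486 across the JQ1 times and 3281 and 3455 in DMSO. The fly Cdt1, dup, had 1834, 1417, 950.5 and 492 across the JQ1 times and 3833 and 4009 in DMSO. Cdc6 was at 26.7% of DMSO within 1 h, the lowest of all 30 members at that time, and changed little up to 4 h. Its pooled log2 fold change was -2.05 ± 0.24 (edgeR's adjusted p = 0.00459), beside -1.74 ± 0.44 for dup (0.0206) and -0.67 ± 0.22 for geminin (0.0452). At 20 h dup stood at 12.6% of DMSO and geminin at 44.1%, and both were lower than at 1 to 4 h, with differences of -1.51 and -0.65 on the log2 scale (edgeR's adjusted p = 0.0343 and 0.0297). Geminin kept within 0.12 of genes of like abundance up to 4 h and lay -0.82 from them at 20 h.

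The genes of the kinase that fires loaded origins were an exception among the members. Their median distance from genes of like abundance was -0.04, 0.23, 0.24 and 0.34 at 1, 2, 4 and 20 h, with single values from -0.40 to 0.67. The catalytic subunit Cdc7 had 951, 968, 871 and 1245 scaled counts at 1, 2, 4 and 20 h of JQ1, against 1179 and 1323 in DMSO. Its Dbf4-like partner chif had 2465, 2986, 3062 and 3614 across the JQ1 times and 4484 and 4554 in DMSO. Cdc7 at 20 h lay between the DMSO libraries, the one overlap among the 30 members, and chif was at its lowest at 1 h and higher at each later time. In the pooled test chif passed at -0.58 ± 0.17 (edgeR's adjusted p = 0.0295) and Cdc7 did not at -0.31 ± 0.19, and both signs turn positive with TMM factors or DESeq2 size factors. Relative to 1 to 4 h, Cdc7 and chif had positive differences of 0.42 and 0.35 at 20 h that missed the threshold (edgeR's adjusted p = 0.0925 and 0.122). With Psf1 and Psf3 these are the 4 members that never stood below 50% of DMSO, which 4309 of the 8690 tested genes never did either. Of the exonic length of chif, 19.5% is shared with Hyls1 on the same strand.

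The sliding clamp and its loader were all above 50% of DMSO at 1 h and all below it at 4 h. PCNA, the clamp, had 4208, 2919, 2324 and 1342 scaled counts at 1, 2, 4 and 20 h of JQ1, against 6849 and 6629 in DMSO. RfC4, a small loader subunit, had 2319, 1621, 972 and 761 across the JQ1 times and 3212 and 3394 in DMSO. RfC3 had 837, 653, 391 and 239 across the JQ1 times and 1196 and 1272 in DMSO. All 3 were above 60% of DMSO at 1 h and between 19.4% and 23.0% at 20 h. In each of them every JQ1 library lay below the one before, as in 15.0% of all tested genes. PCNA and RfC4 passed in the pooled test, at -1.32 ± 0.38 and -1.22 ± 0.41 (edgeR's adjusted p = 0.0302 and 0.0482), and RfC3 at -1.22 ± 0.45 did not. Gnf1, the large loader subunit, had 3988, 3387, 2604 and 2275 across the JQ1 times and 5716 and 6122 in DMSO. RfC38 had 492, 370.1, 406 and 369 across the JQ1 times and 875 and 909 in DMSO. These 2 genes changed least after 4 h, Gnf1 with 38.4% and RfC38 with 41.4% of DMSO left at 20 h, and both passed in the pooled test at -0.95 ± 0.23 and -1.12 ± 0.19 (0.0173 and 0.00767). At 20 h against 1 to 4 h PCNA passed, at -1.23 ± 0.33 (edgeR's adjusted p = 0.0437). RfC3 at -1.39 ± 0.44 and RfC4 at -1.10 ± 0.46 had differences of like size that did not pass (0.0663 and 0.132), and RfC3 was called when scaled on total counts, TMM factors or DESeq2 size factors. Of the exonic length of RfC38, 25.2% lies under Nup160 on the opposite strand.

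RpA-70, the large subunit of the protein that coats single-stranded DNA, had 9070.2, 8247, 6224 and 4576 scaled counts at 1, 2, 4 and 20 h of JQ1, against 11908 and 12670.5 in DMSO. Every JQ1 library lay below DMSO (67.9% of all tested genes) and below the earlier ones (15.0%). The gene was first under 50% of DMSO at 20 h, at 37.2%. It fell in the pooled test, with a change of -0.81 ± 0.26 on the log2 scale (edgeR's adjusted p = 0.0416) and was lower at 20 h than at 1 to 4 h, with a difference of -0.78 (0.0453).

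Of the genes that finish the lagging strand and repack the daughters, the pair of tested CAF-1 subunits, which deposit new histones behind the fork, took different courses. Caf1-105 had 394, 347, 338 and 302 scaled counts at 1, 2, 4 and 20 h of JQ1, against 1362 and 1357 in DMSO. Caf1-180 had 3120.1, 2725, 2155 and 1333 across the JQ1 times and 4921 and 5409.6 in DMSO. Fen1, the nuclease that trims Okazaki flaps, had 821, 536, 461 and 345 across the JQ1 times and 1338 and 1399 in DMSO. Caf1-105 was already at 29.0% of DMSO at 1 h and then moved only to 22.2% at 20 h, whereas Caf1-180 was at 60.4% and 25.8% at those times. All 3 passed in the pooled test, at -1.98 ± 0.17, -1.15 ± 0.31 and -1.34 ± 0.32 in that order (edgeR's adjusted p = 0.00457, 0.0237 and 0.0175). That test called 44.3% of all tested genes lower. At 20 h against 1 to 4 h Caf1-180 passed, at -1.0 ± 0.22 (edgeR's adjusted p = 0.0257), and neither Fen1 at -0.81 ± 0.35 (0.141) nor Caf1-105 at -0.25 ± 0.18 (0.354) did. Whether these differences differ from one another was not tested.

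The 3 genes of nucleotide supply all dropped at every step up to 20 h, as 15.0% of all tested genes did. Ts, the thymidylate synthase that makes dTMP, had 2895, 2392, 1409.6 and 153 scaled counts at 1, 2, 4 and 20 h of JQ1, against 3655 and 3799.9 in DMSO. RnrS, the small subunit of ribonucleotide reductase, had 6353, 5045, 3812 and 1348 across the JQ1 times and 8912 and 9091 in DMSO. RnrL, the large subunit, had 6141, 5208, 4054 and 2284 across the JQ1 times and 9453 and 10092 in DMSO. At 1 h the 3 genes stood at 62.8% to 77.7% of DMSO and -0.31 to 0.09 from genes of like abundance, and by 20 h Ts had 4.11%, RnrS 15.0% and RnrL 23.4% left. As a share of its DMSO level Ts was the lowest of all 30 members at 20 h, and its distance from genes of like abundance was 0.09, -0.08, -0.72 and -4.18 at 1, 2, 4 and 20 h. RnrL alone passed in the pooled test, at -1.14 ± 0.34 (edgeR's adjusted p = 0.0334). Between 20 h and 1 to 4 h the log2 differences were -3.87 for Ts, -1.91 for RnrS and -1.17 for RnrL (edgeR's adjusted p = 0.00526, 0.00964 and 0.0199), and the call of Ts held without each of the other 5 libraries in turn. Per kilobase of exon, RnrS stood at 1.67, 1.57 and 1.52 times RnrL at 1, 2 and 4 h of JQ1, against 1.53 and 1.46 times in DMSO. At 20 h of JQ1 the order was the other way, with RnrL at 886 and RnrS at 846 scaled counts per kilobase. Of the exonic length of Ts, 10.5% lies under Rbp9 on the opposite strand.

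The members differed in when they first stood below 50% of DMSO. The 10 below 50% of DMSO at 1 h were Mcm2, dpa, Mcm5, Mcm10, Orc2, Orc5, Orc6, Cdc6, dup and Caf1-105, which hold 3 of the 5 helicase genes, 3 of the 4 origin complex genes and both helicase loaders but 0 of the 5 clamp and 0 of the 3 nucleotide genes. At 2 h 6 more were that low, at 4 h 8 more, and at 20 h RpA-70 and geminin were added. The roles ordered by their median level at 1 h ran from 44.6% of DMSO for the origin complex, 46.8% for licensing and 49.0% for the helicase to 60.0% for the Okazaki and chromatin assembly genes, 65.3% for the kinase, 67.3% for the helicase partners, 67.4% for clamp and loader, 70.6% for nucleotide supply and 73.8% for RpA-70. At 20 h nucleotide supply was lowest at 15.0%, next to the helicase at 15.5%, licensing at 17.3% and the origin complex at 17.7%, and the kinase was highest at 89.8%. Both the 10 and the orders depend on the measure. With TMM factors or DESeq2 size factors 2 members were below 50% at 1 h (5.45% and 5.11% of all tested genes). By median distance from genes of like abundance, licensing was lowest at 1 h at -0.64, then the helicase at -0.56 and the origin complex at -0.37. At 20 h nucleotide supply at -2.40 and the helicase at -2.34 were lowest. With 1 to 5 genes in a role and 1 library per time, these orders are descriptions.

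Beyond the 38 genes, a list of 41 further replication genes was read in the same fits. Of these 35 were matched and 34 tested, and 25 were lower and 0 higher in JQ1 in the pooled test (44.3% and 1.43% of all tested genes), with 14 lower and 0 higher at 20 h against 1 to 4 h (7.34% and 17.2%). The 7 tested polymerase subunits had a median of 46.7%, 30.8%, 18.8% and 10.6% of DMSO at 1, 2, 4 and 20 h, lower than the median member at each time. Their median distance from genes of like abundance was -0.36, -0.74, -1.31 and -2.42, with Mes4 at 0.41 at 1 h. PolA2, the second subunit of the polymerase that carries primase, had 466, 268, 167 and 92.0 scaled counts at 1, 2, 4 and 20 h of JQ1, against 1616 and 1503 in DMSO. PolA1, its catalytic subunit, had 2170.2, 1702, 1429.9 and 932 across the JQ1 times and 4476 and 4824 in DMSO. In both genes all JQ1 libraries lay below DMSO, as in 67.9% of all tested genes. Both fell, at -2.65 ± 0.55 and -1.58 ± 0.30 (edgeR's adjusted p = 0.0114 and 0.00914). Prim2, PolE2 and PolD2 fell too, at -2.03 ± 0.54, -1.84 ± 0.47 and -1.71 ± 0.52, whereas the primase subunit Prim1 (-1.70 ± 0.67) and Mes4 (-1.01 ± 0.45) did not pass. Chrac-14 had 0 reads in every library and was not tested, and PolE1, PolD1 and PolD3, like DNA-ligI, Dna2 and Caf1-55 elsewhere in the list, were not matched.

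Of the 14 tested fork genes 12 fell in the pooled test, where 44.3% of all tested genes did. The histone chaperone asf1 did not pass, at -0.98 ± 0.35 (edgeR's adjusted p = 0.0577). RecQ4, a helicase, and Claspin, a fork protection factor, had 7.58% and 7.51% of DMSO left at 20 h, with pooled changes of -2.45 ± 0.47 and -2.41 ± 0.48 (edgeR's adjusted p = 0.00952 and 0.0103). The other 10 were cutlet, elg1, hd, CG10336, CG3430, Ctf4, mus101, CG8142, Top3alpha and Top1, and their log2 fold changes ran from -2.38 for cutlet to -0.57 for Top1. Top1 kept 62.7% to 70.4% of DMSO at all times, and its sign turns positive with TMM factors or DESeq2 size factors. The fork genes not passing were rnh1, at -0.74 ± 0.26, and timeout. For timeout the values were 1405, 965, 305 and 68.0 across the JQ1 times and 1637 and 1759 in DMSO, and was lower at 20 h than at 1 to 4 h, with a difference of -3.71 on the log2 scale (edgeR's adjusted p = 0.0392). All 3 genes of the ligase that destroys Cdt1 in S phase fell, where the median over all tested genes was -0.63. Their log2 fold changes were -1.38 for l(2)dtl, -0.65 for Cul4 and -0.45 for pic. The sign of pic turns positive with TMM factors or DESeq2 size factors.

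Of the further genes of nucleotide supply, CG5757, dnk and dUTPase resembled Ts in being lower at 20 h and not passing in the pooled test. Among all tested genes 33.7% were lower at 20 h than at 4 h. At 20 h against 1 to 4 h, CG5757 had a difference of -4.03, dnk, a deoxynucleoside kinase, one of -2.39 and dUTPase one of -1.53 on the log2 scale (edgeR's adjusted p = 0.0385, 0.00704 and 0.00491). They stood at 2.22%, 11.2% and 27.4% of DMSO at 20 h. Of the exonic length of dUTPase, 100% lies under an antisense RNA gene. The regulators of these genes all fell in the pooled test, where 44.3% of all tested genes did, and by less than the median member in 4 of 5 cases. The median over all tested genes was -0.63, close to the changes of E2f1 and E2f2. At 20 h the 5 distances from genes of like abundance ran from -1.28 for Dp to 0.16 for E2f2. E2f1, the activating E2F, had 6936, 6896, 6077 and 7134 scaled counts at 1, 2, 4 and 20 h of JQ1, against 10378 and 10961 in DMSO. Dp, its dimer partner, had 3508, 2676, 2172 and 2173 across the JQ1 times and 6349 and 6699 in DMSO. Dref had 3002, 2201, 1561 and 1559 across the JQ1 times and 4643 and 4911 in DMSO. E2f1 stayed between 57.0% and 66.9% of DMSO with no further drop at 20 h, and Dp and Dref levelled off at 4 h and stood at 33.3% and 32.6% of DMSO at 20 h. The pooled log2 fold changes were -0.66 ± 0.11 for E2f1, -1.31 ± 0.21 for Dp, -1.20 ± 0.28 for Dref, -0.88 ± 0.14 for the retinoblastoma protein Rbf and -0.62 ± 0.15 for the repressive E2f2 (edgeR's adjusted p = 0.00767, 0.00679, 0.0154, 0.00705 and 0.016), E2f2 with a sign that turns positive with DESeq2 size factors.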

How the data were processed

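The study sequenced polyadenylated RNA of S2-DRSC cells, with 4 JQ1 and 2 DMSO libraries. The deposited values were raw read counts per gene, which the authors made by aligning reads with TopHat (Ensembl release 64 models, build BDGP5 per the submitters' processing notes) and counting uniquely mapped reads with HTSeq-count. Versions and the use of strand are not given in the sources used here. The 5 lines naming no gene held 21.9% to 25.6% of records in JQ1 and 27.2% to 27.3% in DMSO and were left out. Symbols, exonic lengths and overlaps came by identifier from a release 6 annotation, which matched 13524 of 14869 identifiers, so no coordinates or sequences are given.

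A library's factor was the median ratio of its counts to the geometric mean, over the 100 genes most abundant in DMSO. Genes averaging 10 scaled counts or more (8690) were tested with edgeR 4.0.16 in R 4.3.3, by the quasi-likelihood test, two-sided, calling adjusted p-values (Benjamini-Hochberg) under 0.05. One fit had JQ1 and DMSO groups, the other DMSO, JQ1 1 to 4 h and JQ1 20 h. As libraries are not stated to be separate cultures, p-values measure the spread between these libraries only. Fold changes at one time used a pseudocount of 1, which understates changes of low genes, and 95% intervals cover counting error only. All times share their DMSO libraries. Alternatives were 5 other scalings, filters of 1 read or 50 scaled counts, a pseudocount of 5, other neighbour numbers and left-out libraries. A block of treatment duration, on the 1 h and 20 h libraries alone, and DESeq2 1.42.0 were also used. The scripts were tested on simulated data.

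All matched members are named. Values in every library were due for the members that changed most and least in each role and those more than 1 from their neighbours, and are given for all 30. Genes of the further list are named where called in the pooled test or where polymerase subunits, and rnh1, timeout, dUTPase, dnk, CG5757 and asf1 were chosen after their values were seen. The members and lists were chosen with earlier results of these data known. A gene of the further list is not reported here by name. A planned search of promoter motifs was not run.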

Additional observations from a re-analysis of the deposited data

Results flagged for a closer look

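Of 64 replication genes checked, 27 differed between the 20 h JQ1 library and the 1 to 4 h JQ1 libraries, all 27 toward lower levels. By the same edgeR quasi-likelihood test with Benjamini-Hochberg adjustment, 7.34% of all tested genes were lower at 20 h and 17.2% higher. The 20 h group was a lone library, and the calls moved with the libraries used. Among the helicase and licensing genes the log2 differences were -1.11 for Mcm2, -1.08 for dpa, -1.84 for Mcm5, -1.71 for Mcm6, -2.74 for Mcm7, -1.51 for dup and -0.65 for geminin. Behind the fork they were -1.23 for PCNA, -0.78 for RpA-70 and -1.0 for Caf1-180, and in nucleotide supply -1.17 for RnrL, -1.91 for RnrS and -3.87 for Ts. In the further list they were -0.92 for PolA1, -1.66 for PolE2, -1.46 for Mes4, -1.50 for Ctf4, -1.59 for Claspin, -3.71 for timeout, -1.99 for CG10336, -0.96 for mus101 and -1.28 for hd. The rest were -1.18 for asf1, -0.82 for l(2)dtl, -1.52 for dUTPase, -2.39 for dnk and -4.03 for CG5757. Psf1 had 1 JQ1 library apart from the others: the 1 h library, at 339 scaled counts, stood above the other 3 at 264 to 273, a gap of 0.876 of the whole range, beyond Dixon's critical value at 95% for 4 samples. Chance gives such a gap in about 1 in 20 groups, and 1 of 64 genes had it.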

How the results depend on the processing

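The count of calls in the pooled test changed with scaling and with left-out libraries. It also changed with duration as a block, a fit without the JQ1 2 h and 4 h libraries. In place of 23, 7 members were called lower with total counts (where 21.9% of all tested genes were) and 3 with TMM factors (6.32%). The number was 3 with DESeq2 size factors (5.44%) and 11 with an index of 500 genes (25.9%). Leaving out single JQ1 libraries gave 10 to 29 members, where 25.3% to 64.3% of all tested genes were called lower. With either DMSO library left out no replicate control remained, and the calls did not hold for members or for other genes. With treatment duration as a block, on the 1 h and 20 h libraries alone, 0 members and 0 of all tested genes were called. There 23 members passed unadjusted, where 2566 of all tested genes were lower and 76 higher. At 20 h against 1 to 4 h, total counts, TMM factors and DESeq2 size factors gave 20 lower in place of 13, and leaving out single libraries gave 1 to 22 lower and 0 to 1 higher. The median log2 fold change at 1, 2, 4 and 20 h was -0.42, -0.81, -1.12 and -2.15 with total counts, -0.20, -0.50, -0.73 and -1.72 with TMM factors, -0.17, -0.45, -0.66 and -1.65 with DESeq2 size factors and -0.51, -0.91, -1.21 and -2.09 with the index of 500. With the sum over the index genes it was -0.66 at 1 h and -2.34 at 20 h. Members below 50% of DMSO at 1 h numbered 4 with total counts (9.4% of all tested genes) and 6 with the index of 500 (11.8%). They numbered 2 with TMM factors (5.45%) and 2 with DESeq2 size factors (5.11%). At 2 h they numbered 5 with either TMM or DESeq2 factors (11.3% and 10.5%), and at 4 h 11 with TMM (14.7%) and 7 with DESeq2 factors (13.3%).

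The median distance from genes of like abundance hardly moved with scaling. Leaving out a DMSO library gave, for 1, 2, 4 and 20 h in turn, -0.23 to -0.22, -0.44 to -0.42, -0.67 to -0.65 and -1.70 to -1.57. With 100 neighbours it was -0.70 at 4 h and -1.63 at 20 h, with 400 it was -0.21 at 1 h and -0.41 at 2 h, and with abundance over all 6 libraries it was -0.22, -0.37 and -1.56 at 1, 2 and 20 h. The cause of these shifts was not tested.

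Signs that turned in the pooled test had log2 fold changes, with TMM and DESeq2 factors, of 0.15 and 0.21 for Psf3, 0.29 and 0.34 for Cdc7, 0.0261 and 0.083 for chif, 0.0321 and 0.0866 for Top1, 0.15 and 0.20 for pic and 0.0100 and 0.0604 for dUTPase, and with DESeq2 factors 0.0328 for E2f2. At 20 h against 1 to 4 h, total counts gave -0.00475 for Psf3, -0.0713 for rnh1, -0.15 for Top1 and -0.13 for E2f1. There TMM factors gave -0.0349 for Top1 and -0.0122 for E2f1, DESeq2 factors -0.0175 for Top1, the index sum -0.0635 for Top1 and -0.0427 for E2f1, and the index of 500 -0.00587 for Top1. Without single libraries the difference ranged from -0.15 to 0.0394 for Psf1, -0.0477 to 0.0291 for pic and -0.0683 to 0.36 for rnh1. The cause was not tested. With 1 library per treatment and time, depth is not what limits these comparisons, except for genes with few reads such as Orc6.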
